A study of Mus musculus with 2 samples.

Results

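Atp1b1, Atp1b3, Fxyd2, Fxyd4 and Fxyd5 encode accessory subunits and partners of the sodium-potassium ATPase. They were taken by gene symbol, as 5 of the 32285 genes in the count tables, and their transcripts were counted in single cell RNA sequencing (scRNAseq) of mouse kidney. The data held 1 control and 1 ischemia library, both from wildtype male C57BL/6J mice at 19 weeks of age. The control library came from a contralateral, uninjured kidney, and the ischemia library from a kidney with 27 min of ischemia and 24 h of reperfusion. The control is thus the other kidney of an operated animal and not a sham kidney, and each library came from 1 kidney. Kidneys were dissociated with enzymes, and whole cells were captured in droplets with a chemistry that counts the 3' end of transcripts.

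The sodium-potassium ATPase moves sodium out of the cell and potassium in, and in the kidney tubule it sits on the basolateral side and drives reabsorption. A catalytic alpha subunit pairs with a glycosylated beta subunit, which the alpha subunit needs to reach the plasma membrane, and the pair can bind a small membrane protein of the FXYD family that tunes its affinity for ions. Atp1b1 encodes the beta-1 subunit of most tubule cells and Atp1b3 the beta-3 subunit. Fxyd2 encodes the gamma subunit of the renal pump, Fxyd4 the corticosteroid hormone-induced factor (CHIF) of the collecting duct, and Fxyd5 dysadherin, which is also tied to cell adhesion.

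The promoters of both beta subunit genes are shown because they are rich in CG dinucleotides. In the RefSeq table of GRCm38.p6, 4 of the 5 genes had an entry, and Fxyd2 had none. The 250 bases before the start of transcription held 24 CG dinucleotides in Atp1b1 and 24 in the first of 2 Atp1b3 entries, against a median of 6 over 32851 promoter windows. As many or more were found in 12.0% of windows. The window of Atp1b1 lies at chr1:164458356-164458605 and that of Atp1b3 at chr9:96364432-96364681, both on the minus strand. They are written 5′ to 3′ with each CG in capitals.
Atp1b1: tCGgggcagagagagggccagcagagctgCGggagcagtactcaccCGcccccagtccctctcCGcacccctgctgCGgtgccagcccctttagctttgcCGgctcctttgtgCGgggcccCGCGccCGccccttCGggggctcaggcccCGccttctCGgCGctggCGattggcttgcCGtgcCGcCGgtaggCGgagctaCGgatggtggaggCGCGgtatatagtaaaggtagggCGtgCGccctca
Atp1b3: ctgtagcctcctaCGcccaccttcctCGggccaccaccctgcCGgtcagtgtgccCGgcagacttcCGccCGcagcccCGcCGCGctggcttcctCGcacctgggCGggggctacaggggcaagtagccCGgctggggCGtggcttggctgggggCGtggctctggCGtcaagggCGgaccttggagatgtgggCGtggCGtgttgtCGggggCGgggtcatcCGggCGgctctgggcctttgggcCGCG
The second Atp1b3 window held 35 CG dinucleotides. The G and C content was 70.4% for Atp1b1 and 73.6% for the first Atp1b3 window, against a median of 52.4%. The windows of Fxyd4 and Fxyd5 lay mostly over exons, with 188 and 219 of 250 bases, and are not described further.

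In the GENCODE M21 annotation of GRCm38, Atp1b1 (ENSMUSG00000026576) is a minus-strand gene of chromosome 1, at 164437109 to 164458355, and overlaps Nme7 on the other strand. The sources used here do not say whether counting used strand, so reads of Atp1b1 and Nme7 may not have been told apart. Atp1b3 (ENSMUSG00000032412) is a minus-strand gene of chromosome 9, at 96332655 to 96364442, and Fxyd2 (ENSMUSG00000059412) on the same chromosome from 45399669 to 45410278 on the plus strand, 3510 bases from Fxyd6. Fxyd4 (ENSMUSG00000004988) lies on chromosome 6 from 117933559 to 117937692 and Fxyd5 (ENSMUSG00000009687) on chromosome 7 from 31032722 to 31042481, both on the minus strand. Fxyd7 lies 32 bases from Fxyd5, and each of Fxyd4 and Fxyd5 overlaps 1 microRNA gene on its own strand.

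The libraries held 142686238 unique molecular identifiers (UMIs, each marking 1 captured RNA molecule) in the control and 142959737 in ischemia. A cell was kept with 200 genes or more, a total of 500 to 150000 UMIs and a mitochondrial share of no more than 55%, which left 12586 control and 13116 ischemia cells, with medians of 3839 and 2138.5 UMIs. The libraries shared 58 barcodes among kept cells. Clusters were named from marker genes as proximal tubule (PT), thin limb, thick ascending limb (TAL), distal convoluted and connecting tubule (DCT-CNT), collecting duct principal cell (CD-PC), intercalated cell (IC), podocyte, endothelial cell (EC), pericyte, macrophage, neutrophil (PMN), T cell and B cell, each written with -like. Of 18 clusters, 2 stayed unnamed and were left out of the named types. The larger held 4550 control and 5873 ischemia cells of few UMIs, with Atp1b1 at 1164 and 872 CPM and Fxyd2 at 3278 and 4042 CPM in the 2 libraries.

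Levels are in CPM, the UMIs of a gene for every 1000000 UMIs of the cells of a type, with an exact 95% Poisson interval in parentheses. Since the counts come from the 3' end and are not scaled to length, CPM were compared between cell types and libraries and not between genes. With 1 library a condition, condition and library cannot be told apart and no test between conditions was run. All intervals cover counting error only. A ratio of ischemia to control CPM of at least 1.5 in either direction was called higher or lower where a gene had at least 50 UMIs in that type over both libraries. The median ratio of all genes ranged from 0.949 in PMN-like to 1.22 in B cell-like cells.

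Atp1b1 was a tubule gene with its highest levels in the distal nephron. In the control library it was at 4249 CPM (4207–4292) in DCT-CNT-like, 3775 CPM (3738–3813) in TAL-like, 3181 CPM (3145–3217) in CD-PC-like and 3015 CPM (2933–3099) in thin limb-like cells. It was at 1921 CPM (1839.9–2005) in IC-like and 1017 CPM (1009–1024) in PT-like cells, and no interval of these 6 types overlapped the next. The 7 other types lay between 242 CPM in podocyte-like and 482 CPM in PMN-like cells, and the intervals from PMN-like to macrophage-like cells formed an overlapping chain. In ischemia the order was different. CD-PC-like cells were at 2926.5 CPM (2895–2959) and DCT-CNT-like cells at 2858 CPM (2819.9–2896), which overlap, and IC-like cells followed at 2179.9 CPM (2084–2279). TAL-like cells were at 1437 CPM (1416–1458), thin limb-like cells at 983 CPM (945–1023) and PT-like cells at 889 CPM (882–896). The 7 other types were between 168 and 405 CPM.

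Atp1b3 was counted in every type and was not highest in the tubule. In the control library it ranged from 29.1 CPM (19.9–41.0) in IC-like to 206 CPM (159.6–263) in T cell-like cells, with thin limb-like cells at 173 CPM (153–194), EC-like cells at 149 CPM (138–159.6) and PT-like cells at 31.6 CPM (30.3–32.9). The 8 highest types formed a chain of overlapping intervals that ended with TAL-like cells at 77.8 CPM (72.5–83.4). In ischemia EC-like cells were highest, at 185 CPM (174–195), and overlapped PMN-like cells at 168 CPM (146–193). IC-like cells were lowest again, at 35.8 CPM (24.5–50.5), and overlapped PT-like cells at 41.0 CPM (39.5–42.5).

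Fxyd2 was found throughout the tubule. In the control library it was at 6363 CPM (6311–6416) in DCT-CNT-like, 4804 CPM (4675–4935) in IC-like and 4196 CPM (4156–4236) in TAL-like cells. Thin limb-like cells at 3529 CPM (3440.4–3619.8) and PT-like cells at 3434 CPM (3421–3448) overlapped, and CD-PC-like cells were the lowest tubule type at 2401 CPM (2370.1–2433). In ischemia DCT-CNT-like cells were at 4799.7 CPM (4750.2–4849) and PT-like cells at 3745 CPM (3730.3–3759), while IC-like cells at 3515 CPM (3393–3640.1) overlapped TAL-like cells at 3495 CPM (3462–3528). CD-PC-like cells were at 1243 CPM (1223–1265) and thin limb-like cells at 701 CPM (668–734). Both levels lay within the range of the types outside the tubule, which was 613 to 1507 CPM in ischemia. Of those types only B cell-like cells, at 1507 CPM, were above CD-PC-like cells. In the control that range was 627 to 1073 CPM, below all tubule types.

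The Fxyd2 and Atp1b1 UMIs outside the tubule came with RNA of PT genes. The 10 PT marker genes, which cells outside the tubule should lack, summed to 1331–2920.2 CPM in the 7 types outside the tubule in the control and to 614–1419 CPM in ischemia. For each 100 UMIs of these markers, Fxyd2 had 34.9–77.5 UMIs in these types in the control, against 40.6 in PT-like cells and 64.5 in all kept cells. In ischemia it had 80.3–121, against 83.6 and 118. The control values of pericyte-like and macrophage-like cells, 77.5 and 67.3, were above that of all kept cells. Only B cell-like cells of the control, at 34.9, and PMN-like cells of ischemia, at 80.3, lay below PT-like cells. Whether Fxyd2 outside the tubule was free RNA in the droplets or expression by those cells was not tested. Atp1b1 had 15.4–33.6 UMIs per 100 marker UMIs there in the control and 26.9–34.1 in ischemia, against 31.1 and 43.7 in all kept cells and 12.0 and 19.8 in PT-like cells. The types outside the tubule thus held more Atp1b1 per PT marker UMI than PT-like cells did. PMN-like cells, at 33.6 in the control, were also above all kept cells. The source of Atp1b1 outside the tubule, at 242 to 482 CPM in the control, was not tested. In the 5 tubule types other than PT-like the Fxyd2 value was 466–1195 in the control and 356–3186 in ischemia.

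**Figure D1:**
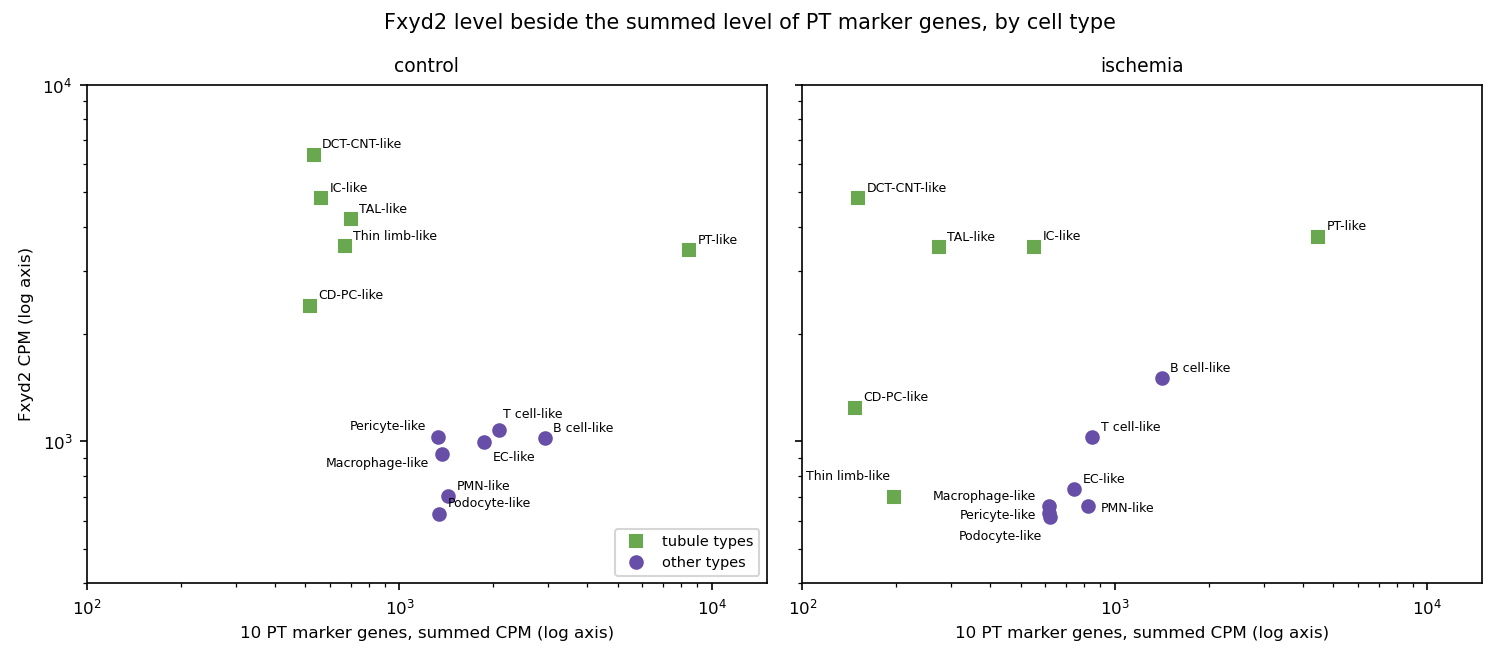
Fxyd2 level (CPM, log axis) against the summed level of 10 PT marker genes (CPM, log axis) in each cell type of the control (left) and ischemia (right) library, with tubule types as squares and other types as circles. Tubule types other than PT-like held 466–1195 Fxyd2 UMIs per 100 marker UMIs in the control, while types outside the tubule held 34.9–77.5.

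Fxyd4 was counted mostly in CD-PC-like cells. The control level was 1568 CPM (1542–1593) and the ischemia level 1329.7 CPM (1308–1351), and these cells held 86.6% of the Fxyd4 UMIs of the control and 88.9% of those of the ischemia library. The next type was pericyte-like in the control, at 69.1 CPM (57.8–82.1), and T cell-like in ischemia, at 24.7 CPM (12.4–44.3). For each 100 UMIs of 7 CD-PC marker genes, Fxyd4 had 23.5–57.0 UMIs in the types outside the tubule in the control and 16.7–61.8 in ischemia, against 30.0 and 44.6 in CD-PC-like cells. PT-like cells, with Fxyd4 at 11.1 and 9.72 CPM, had 29.2 and 83.4, and thin limb-like cells had 136 and 53.8. The ischemia value of PT-like and the control value of thin limb-like cells lay above those of CD-PC-like cells and of all types outside the tubule, and the source of Fxyd4 in PT-like and thin limb-like cells was not tested. All kept cells had 29.5 Fxyd4 UMIs per 100 marker UMIs in the control and 44.5 in ischemia. Most types outside the tubule were above these values, with control pericyte-like cells, at 57.0, and ischemia EC-like cells, at 61.8, the highest. Only EC-like cells, at 28.7, and B cell-like cells, at 23.5, lay below in the control. In ischemia only T cell-like cells, at 39.3, and B cell-like cells, at 16.7, lay below. The source of Fxyd4 outside the tubule was not tested either.

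Fxyd5 was counted mostly outside the tubule. In the control library macrophage-like cells were at 1050.1 CPM (1003–1099), EC-like cells at 381 CPM (364–398), T cell-like cells at 341 CPM (279.9–411), PMN-like cells at 242 CPM (195–298) and pericyte-like cells at 147 CPM (130.5–166). The intervals of EC-like, T cell-like and PMN-like cells formed an overlapping chain. Of the control pericyte-like cells 26.1% were EC-like at a finer clustering. The 6 tubule types were between 0.445 and 3.63 CPM. In ischemia macrophage-like cells were at 926 CPM (900.2–952), PMN-like cells at 808 CPM (758–859.9) and EC-like cells at 536 CPM (518–554), with no overlap, and the tubule types were between 1.44 and 10.5 CPM. Podocyte-like cells lay within the tubule range in both libraries, at 3.17 and 8.98 CPM. EC-like cells held 43.2% and macrophage-like cells 42.7% of the Fxyd5 UMIs of the control library. In ischemia these shares were 33.3% and 47.0%, and PMN-like cells, of which the libraries held 33 control and 208 ischemia cells, held 9.29% against 2.02%.

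**Figure D2:**
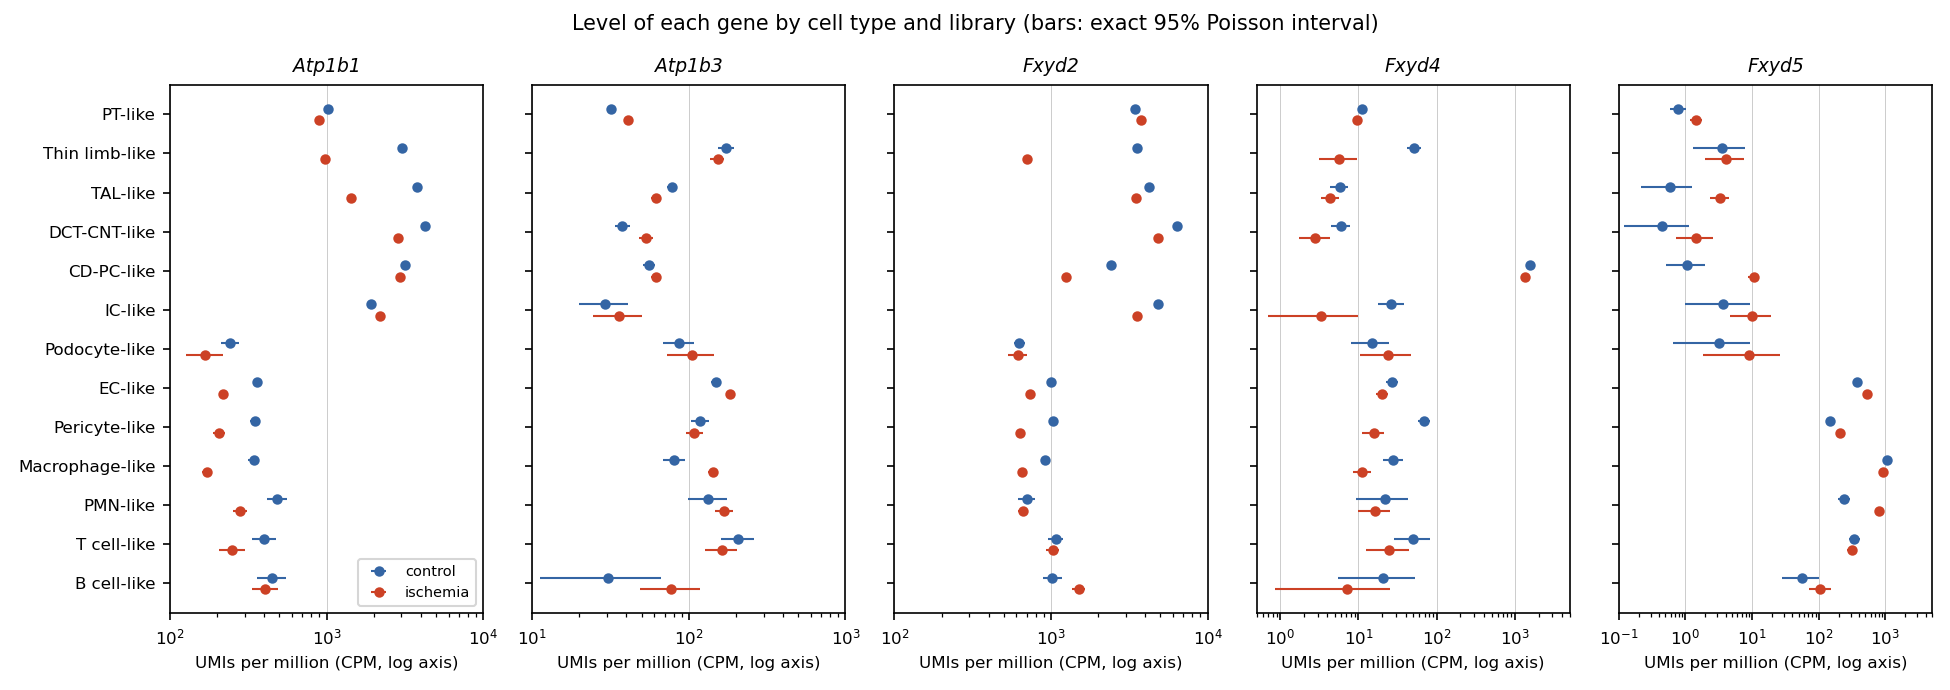
Level of each gene (CPM, log axis) in the 13 named cell types, with control in blue, ischemia in red and bars for the exact 95% Poisson interval. Fxyd5 was at most 10.5 CPM in tubule types against 1050.1 and 926 CPM in macrophage-like cells.

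Whether single cells held the transcripts was read after each cell was thinned to 1000 UMIs, with shallower cells left out. Before thinning, Fxyd2 had a UMI in 99.6% of the PT-like cells of the control and 99.3% of those of ischemia, at medians of 13843.5 and 18309 UMIs, but also in 93.8% and 94.1% of macrophage-like cells at medians of 5551 and 8628 UMIs. After thinning left out 148 and 46 PT-like cells and 6 and 12 macrophage-like cells, Fxyd2 was found in 87.2% (86.1–88.2) and 88.4% (87.2–89.6) of PT-like cells. Over macrophage-like, PMN-like, T cell-like and B cell-like cells, the share was 50.9–67.5% in the control and 44.5–71.1% in ischemia. TAL-like cells were above these shares, at 90.2% and 89.0%. CD-PC-like cells, at 58.9% and 46.2%, control IC-like cells, at 63.8%, and thin limb-like cells of ischemia, at 46.1%, lay within them. The Fxyd2 per PT marker UMI of these tubule types still lay above that of the types outside the tubule.

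Atp1b1 was found in 91.0% (88.1–93.3) of thinned control and 63.8% (59.4–68.1) of thinned ischemia TAL-like cells, and in 87.5% (78.7–93.6) and 43.4% (32.1–55.3) of thin limb-like cells. In macrophage-like, PMN-like, T cell-like and B cell-like cells the share was 21.9–30.3% and 14.0–33.3%. In CD-PC-like cells the shares were 84.7% (81.0–87.9) and 82.1% (77.9–85.7), with overlapping intervals, and in PT-like cells 56.7% and 52.1%. Fxyd4 was found in 40.7% (36.1–45.4) and 44.4% (39.5–49.5) of CD-PC-like cells, against at most 7.07% and 4.44% in any other type. Fxyd5 was found in 58.0% and 54.6% of macrophage-like cells and 24.0% (21.2–26.9) and 34.7% (31.7–37.8) of EC-like cells, against at most 1.14% and 2.22% in tubule types.

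In the comparison of ischemia with control, TAL-like and thin limb-like cells had the lowest Atp1b1 ratios. In TAL-like cells Atp1b1 was at 3775 and 1437 CPM in control and ischemia, a ratio of 0.381 (0.374–0.387), and was the 1 member called, lower, of 4 with enough UMIs. Over all 11223 genes tested in that type, 15.8% were called lower and 17.8% higher. Fxyd2 was at 4196 and 3495 CPM, a ratio of 0.833 (0.822–0.844), and Atp1b3 at 77.8 and 61.4 CPM, a ratio of 0.790 (0.714–0.873). The Atp1b3 ratio passed the fold of 1.5 after thinning, at 0.6365. Fxyd4, from 59 and 55 UMIs, had a ratio of 0.765. It was 0.590 with at most 25% mitochondrial UMIs, 0.4925 without integration, 0.1455 after thinning and 1.32 with cells chosen by marker UMIs. In the TAL-like clusters of the finer clustering Atp1b1 and Fxyd4 were called lower and Fxyd5 higher. Of all genes there 15.3% were called lower and 19.1% higher. In the main clustering Fxyd5 rested on 6 and 41 UMIs. The summed level of 6 TAL marker genes was also lower in ischemia, at 19953 and 9366 CPM, and its part in the Atp1b1 ratio was not tested.

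In thin limb-like cells 3 of 4 members with enough UMIs were called lower, where 16.6% of all genes were called lower and 13.5% higher. Atp1b1 was at 3015 and 983 CPM, a ratio of 0.326 (0.311–0.342), and Fxyd2 at 3529 and 701 CPM, a ratio of 0.199 (0.188–0.209). Fxyd4 was at 51.3 and 5.66 CPM, a ratio of 0.110 (0.0580–0.195) from 87 and 14 UMIs. Atp1b3, at 173 and 152 CPM, had a ratio of 0.883 (0.756–1.03) with an interval that includes 1, and was past a fold of 1.5 with cells chosen by marker UMIs, at 0.594. The group held 88 control and 77 ischemia cells, and marker genes of other tubule types differed with the members, TAL markers at 536 and 206 CPM, DCT-CNT markers at 432 and 95.9 CPM, and 5 genes of injured PT cells at 230.4 and 748 CPM. Their part in these ratios was not tested. By marker UMIs in place of clusters the Fxyd2 ratio was 0.609.

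In PT-like cells Atp1b1, Atp1b3 and Fxyd2 differed by less than 1.5-fold between the libraries, while marker genes of the group shifted. PT markers summed to 8468 CPM before and 4480 CPM after the change from control to ischemia library. Genes of injured PT cells went from 15.3 to 465 CPM. Whether this shift had a part in the ratios of the members was not tested. Atp1b1 was at 1017 and 889 CPM, a ratio of 0.874 (0.865–0.884), and Atp1b3 at 31.6 and 41.0 CPM, a ratio of 1.30 (1.23–1.37). Fxyd2 was at 3434 and 3745 CPM, a ratio of 1.09 (1.08–1.10), beside a median ratio of 1.08 over all genes. With at most 25% mitochondrial UMIs per cell the Fxyd2 ratio was 0.968. Fxyd5 was the 1 member of 5 called, higher at 0.780 and 1.44 CPM, a ratio of 1.85 (1.32–2.61) from 56 and 98 UMIs, where 16.0% of 13543 genes were called higher and 9.09% lower. That call was lost with cells chosen by marker UMIs, at 0.985, without integration of the libraries, at 1.08, and as a mean of each cell's CPM, at 1.42. Macrophage markers were at 3.62 and 8.37 CPM in PT-like cells and Fxyd5 at 35.4 and 82.8 CPM in all kept cells, and their part in the Fxyd5 ratio was not tested. The 3 PT-like clusters lay close together, with Atp1b1 ratios of 0.859, 0.873 and 0.871, Atp1b3 ratios of 1.36, 1.24 and 1.25, and Fxyd2 ratios of 1.13, 1.10 and 1.11.

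In DCT-CNT-like cells Atp1b1 and Fxyd2 were lower by less than 1.5-fold. Atp1b1 was at 4249 and 2858 CPM, a ratio of 0.673 (0.661–0.684), and Fxyd2 at 6363 and 4799.7 CPM, a ratio of 0.754 (0.744–0.764). Atp1b3 was at 37.6 and 53.2 CPM, a ratio of 1.42 (1.22–1.64). The Atp1b1 ratio passed the fold of 1.5 under 4 alternatives, at 0.530 to 0.660, and the Atp1b3 ratio under 3, at 1.65 to 2.27. Fxyd4 was the 1 member of 4 called, lower, where 12.1% of genes were called lower and 15.7% higher. It was at 5.90 and 2.79 CPM, a ratio of 0.474 (0.272–0.799) from 53 and 21 UMIs, and its direction turned under 4 alternatives, with ratios of 1.12, 1.14, 1.22 and 1.72.

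In CD-PC-like cells 1 of 5 members, Fxyd2, was called lower and 1, Fxyd5, higher, where 11.5% and 12.6% of genes were called lower and higher. Fxyd2 was at 2401 and 1243 CPM, a ratio of 0.518 (0.507–0.529), which was 0.303 with at least 1000 UMIs per cell. The ischemia level of Fxyd2 lay within the range of the types outside the tubule. In these cells DCT-CNT markers were at 18242 and 9122 CPM, CD-PC markers at 5231 and 2983 CPM and PT markers at 516 and 147 CPM, and their part in the Fxyd2 ratio was not tested. Atp1b1 was at 3181 and 2926.5 CPM, a ratio of 0.920 (0.906–0.935), and Atp1b3 at 55.5 and 61.8 CPM, a ratio of 1.11 (0.991–1.25). The direction of both turned with cells thinned to 1000 UMIs, at 1.04 and 0.723. That of Atp1b1 also turned as a mean of each cell's CPM, at 1.02. That of Atp1b3 also turned with at least 1000 UMIs per cell, at 0.875, and with cells chosen by marker UMIs, at 0.755. The Atp1b1 ratio was further below 1 with at least 1000 UMIs per cell, at 0.704. Fxyd4 had a ratio of 0.848 (0.829–0.868), which passed the fold of 1.5 with at least 1000 UMIs per cell, at 0.6003, and with cells chosen by marker UMIs, at 0.649. Fxyd5 was at 1.07 and 10.5 CPM, a ratio of 9.81 (5.15–21.0) from 10 and 115 UMIs, and was found before thinning in 1.99% and 11.1% of cells. As a mean of each cell's CPM the Fxyd5 ratio was 3.89. Macrophage and EC markers, genes of the types that hold most Fxyd5, were at 17.6 and 31.2 CPM and 17.1 and 18.3 CPM in CD-PC-like cells, and their part was not tested.

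IC-like cells, a small group of 58 control and 45 ischemia cells led by Slc26a4, had 0 of 3 members called, where 13.7% of genes were called higher and 13.6% lower. At a finer clustering type A intercalated-like cells lay in the CD-PC-like group, and all IC-like cells were type B intercalated-like. Atp1b1 was at 1921 and 2179.9 CPM, a ratio of 1.13 (1.07–1.21), and of 0.919 with cells chosen by marker UMIs, which turns the direction. TAL markers were at 434 and 1407 CPM in these cells, and their part was not tested. Fxyd2 was at 4804 and 3515 CPM, a ratio of 0.732 (0.700–0.765) that passed the fold of 1.5 under 4 alternatives, at 0.434 to 0.647.

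**Figure D3:**
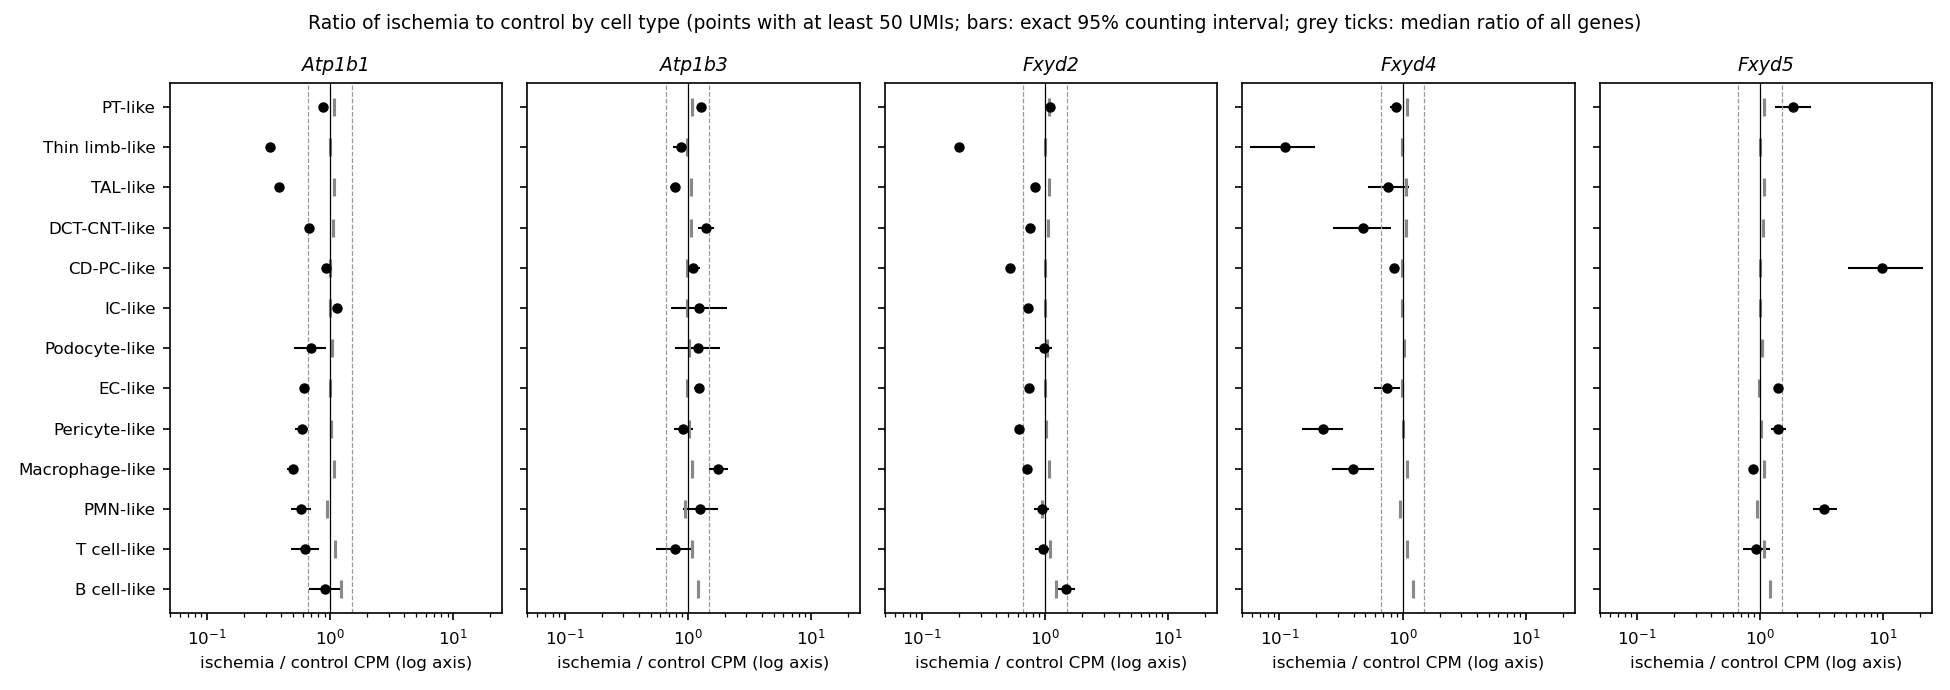
Ratio of ischemia to control CPM (log axis) of each gene in each cell type where it had at least 50 UMIs, with exact 95% counting intervals, dashed lines at a fold of 1.5 and grey ticks at the median ratio of all genes. Atp1b1 lay at 0.326 and 0.381 in thin limb-like and TAL-like cells, against 0.874 in PT-like and 0.920 in CD-PC-like cells.

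Outside the tubule, the source of Fxyd2, Atp1b1 and Fxyd4 was not tested. In macrophage-like cells 1 of 5 members, Atp1b3, was called higher, at 80.9 and 143 CPM, a ratio of 1.77 (1.48–2.13), where 17.6% of genes were called higher and 12.1% lower. Fxyd5 was at 1050.1 and 926 CPM there, a ratio of 0.882 (0.836–0.930). Atp1b1 and Fxyd4 were called lower, at ratios of 0.498 and 0.397, from counts whose source was not tested.

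In PMN-like cells 1 of 4 members, Fxyd5, was called higher, at 242 and 808 CPM, a ratio of 3.33 (2.68–4.19), where 26.1% of genes were called higher and 24.2% lower. As a mean of each cell's CPM the ratio was 2.03. At a finer clustering 14 of the 33 control and 18 of the 208 ischemia cells fell into an unnamed cluster. In the narrower PMN-like cluster, chosen after seeing the data and with 19 control and 190 ischemia cells, Fxyd5 was at 732 CPM (588–900.3) and 1109 CPM (1040.3–1180.1), and no ratio was taken from so few control cells. Atp1b1, whose source there was not tested, was called lower at 0.582, a call lost after thinning, at 0.728. Atp1b3 was at 133 and 168 CPM, a ratio of 1.26 (0.919–1.76) that passed the fold of 1.5 after thinning, at 1.52.

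In EC-like cells Fxyd5 was at 381 and 536 CPM, a ratio of 1.41 (1.33–1.49), and Atp1b3 at 149 and 185 CPM, a ratio of 1.24 (1.13–1.36). Both were higher by less than 1.5-fold, though the Fxyd5 ratio was 1.53 in the EC-like clusters of the finer clustering and 1.64 after thinning. The Atp1b3 ratio was 1.01 after thinning. Of 5 members 1, Atp1b1, was called lower at 0.609, where 6.8% of genes were called higher and 9.78% lower. In pericyte-like cells Fxyd5 was at 147 and 208 CPM, a ratio of 1.41 (1.22–1.64) that passed the fold of 1.5 under 6 alternatives, at 1.83 to 2.71. At the finer clustering 26.1% of the control and 17.4% of the ischemia cells of this group were EC-like. In the narrower pericyte-like clusters Fxyd5 was called higher, where 13.1% of genes were. Its counts there were 82 and 373 UMIs, against 277 and 507 in the group. In the pericyte-like group of the main clustering 3 of 5 members, Atp1b1, Fxyd2 and Fxyd4, were called lower, at 0.589, 0.612 and 0.226. Of all genes there 8.16% were called lower and 7.52% higher. The Fxyd4 ratio was 0.781 without the cells of the highest doublet scores, the Atp1b1 call was lost with at most 25% mitochondrial UMIs, at 0.699, and with cells chosen by marker UMIs, at 0.685, and the Fxyd2 call was lost under 5 alternatives.

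In T cell-like cells Fxyd5 was at 341 and 319 CPM and Atp1b3 at 206 and 162 CPM, with intervals of the ratio that include 1. Of 4 members 1, Atp1b1, was called lower, at 0.624 and at 0.923 after thinning, where 7.86% of genes were called lower and 12.7% higher. In podocyte-like cells 0 of 3 members were called, where 7.29% of genes were called higher and 7.19% lower. The Fxyd2 ratio of 0.978 there was 2.20 with at most 25% mitochondrial UMIs and 1.83 with cells chosen by marker UMIs. The Atp1b1 ratio of 0.693 turned to 1.37 and 1.27 under these alternatives. That of Atp1b3 was 1.89 after thinning. In B cell-like cells 0 of 2 members were called, where 29.2% were called higher and 5.62% lower. Fxyd2 there had a ratio of 1.48 (1.25–1.76), with PT markers at 2920.2 and 1419 CPM.

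The mix of the 2 beta subunit genes differed between tubule and most other types. In the control library Atp1b1 made up 94.6% of Atp1b1 and Atp1b3 UMIs in thin limb-like cells, the lowest share of a tubule type, and 99.1% in DCT-CNT-like cells, the highest. It made up 70.6% (68.8–72.4) in EC-like, 74.8% (71.8–77.6) in pericyte-like and 80.9% (78.0–83.7) in macrophage-like cells, where the source of Atp1b1 was not tested. B cell-like cells, with 6 Atp1b3 UMIs in the control, were at 93.6% (86.6–97.6). In ischemia the Atp1b1 share was lower in EC-like cells, at 54.1% (52.2–56.0), in macrophage-like cells, at 54.4% (52.0–56.8), and in thin limb-like cells, at 86.6% (85.3–87.8). In TAL-like cells it was 98.0% in the control and 95.9% in ischemia, so Atp1b3 stayed a small part of the UMIs there.

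Among Fxyd2, Fxyd4 and Fxyd5, Fxyd2 held at least 98.5% of UMIs in the tubule types of the main clustering other than CD-PC-like, in both libraries. In CD-PC-like cells Fxyd2 held 60.5% (60.0–61.0) and Fxyd4 39.5% (39.0–40.0) in the control. In ischemia the shares were 48.1% (47.5–48.7) and 51.5% (50.9–52.0), and the group also held other cell types. In the narrower CD-PC-like cluster of the finer clustering Fxyd4 was the larger part in both libraries, at 52.9% (52.2–53.5) and 66.6% (65.9–67.2). At that clustering Fxyd2 held 96.1% and 92.0% in connecting tubule-like and 97.6% and 81.7% in type A intercalated-like cells. Fxyd5 made up 52.6% of control and 58.1% of ischemia UMIs in macrophage-like cells, 27.1% and 41.5% in EC-like cells and 25.1% and 54.4% in PMN-like cells. Most of the rest was Fxyd2, whose source there was not tested. In the narrower PMN-like cluster the Fxyd5 shares were 47.1% (39.8–54.5) and 56.0% (53.7–58.4).

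**Figure D4:**
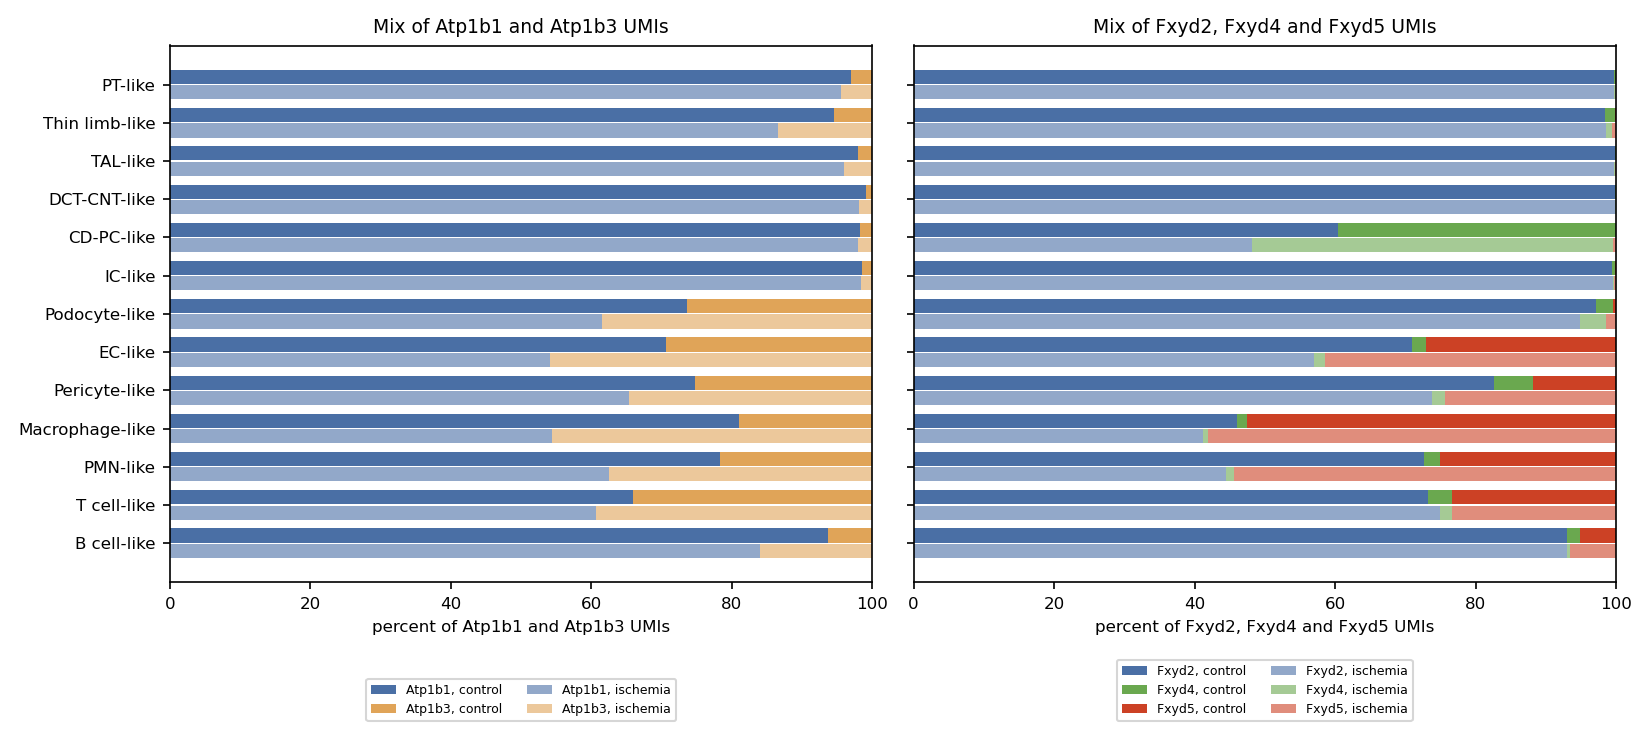
Share in percent of each beta subunit gene in Atp1b1 and Atp1b3 UMIs, and of each FXYD gene in Fxyd2, Fxyd4 and Fxyd5 UMIs, by cell type, with control in dark and ischemia in pale bars. In CD-PC-like cells the Fxyd4 share was 39.5% in the control and 51.5% in ischemia, against 52.9% and 66.6% in the narrower CD-PC-like cluster, which is not drawn.

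The CD-PC-like cells of the main clustering held other cells of the distal nephron, and a finer clustering of 31 clusters set them apart. Of its control cells 25.7% were connecting tubule-like and 20.8% type A intercalated-like there, and of its ischemia cells 31.0% and 21.4%. In the narrower CD-PC-like cluster, with 238 control and 185 ischemia cells, Fxyd4 was at 2258 and 1802 CPM, a ratio of 0.798 (0.779–0.818). There 1 member, Fxyd2, was called lower, at 2012 and 893 CPM, a ratio of 0.444 (0.430–0.458), and 1, Fxyd5, higher, at 1.35 and 12.7 CPM, a ratio of 9.39 (4.56–22.4) from 8 and 87 UMIs, where 16.6% of genes were called lower and 12.4% higher. Lower Fxyd2 and higher Fxyd5 counts in ischemia were thus also present in this narrower cluster. Its ischemia Fxyd2 level of 893 CPM also lay within the range of the types outside the tubule. The Atp1b1 ratio in this cluster was 0.831.

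In connecting tubule (CNT)-like clusters, with 676 control and 558 ischemia cells, Fxyd4 was the 1 member called higher, at 173 and 319.6 CPM, a ratio of 1.85 (1.72–1.99), where 17.1% of genes were called higher. It was found in 9.47% (7.36–12.0) of control cells after thinning and in 15.8% (12.8–19.3) of ischemia cells. Of the CNT-like cells, 476 control and 372 ischemia cells came from the unnamed clusters of the main clustering. From its CD-PC-like group came 116 and 123, and from its DCT-CNT-like group 84 and 63. The part of this mix in the Fxyd4 ratio was not tested. Atp1b1 was at 3802 and 3727 CPM, a ratio of 0.980 (0.963–0.998), and Fxyd2 at 4324 and 3726 CPM, a ratio of 0.862 (0.847–0.877). In the distal convoluted tubule (DCT)-like clusters, with 382 control and 287 ischemia cells, 3 members were called lower, where 14.3% of genes were. Atp1b1 was at 4306 and 2527 CPM, a ratio of 0.587 (0.575–0.599), and Fxyd2 at 7644 and 5027 CPM, a ratio of 0.658 (0.648–0.667), while Fxyd4 rested on 39 and 17 UMIs. The intervals of the Atp1b1 ratio in CNT-like and DCT-like cells do not overlap.

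In type A intercalated (IC-A)-like cells, with 94 control and 85 ischemia cells, Fxyd2 was called lower, at 3667 and 1396 CPM, a ratio of 0.381 (0.360–0.402), and Fxyd4 higher, at 88.5 and 301 CPM, a ratio of 3.40 (2.71–4.31) from 94 and 393 UMIs, where 9.14% of genes were called lower and 16.6% higher. Fxyd4 was found in 5.38% (1.77–12.1) and 14.3% (7.61–23.6) of the thinned cells, intervals that overlap. All of these cells lay in the CD-PC-like group of the main clustering, and the source of Fxyd4 in them was not tested. In IC-like cells Fxyd4 had 29 control and 3 ischemia UMIs. The ischemia Fxyd2 level of 1396 CPM lay within the range of the types outside the tubule. Atp1b1 was at 1862 and 2160.3 CPM, a ratio of 1.16 (1.10–1.23).

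**Figure D5:**
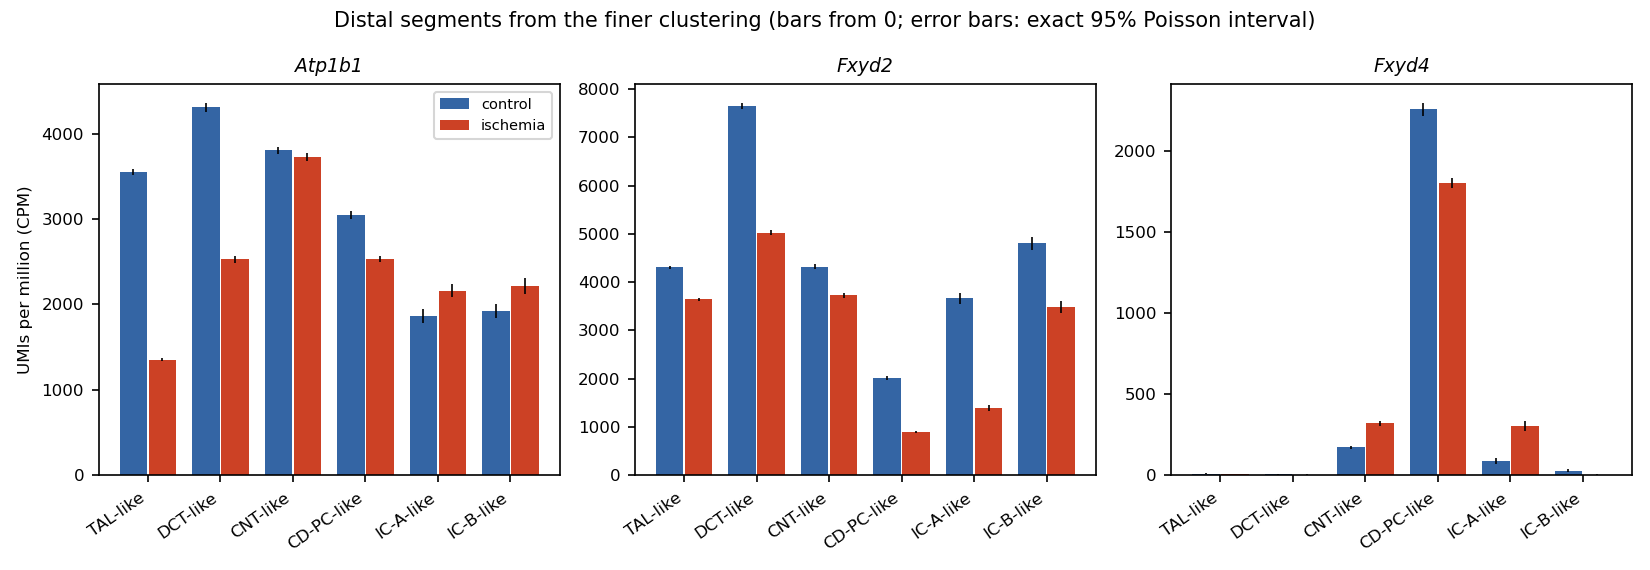
Levels of Atp1b1, Fxyd2 and Fxyd4 (CPM, linear axis from 0) in the distal clusters of the finer clustering, with control in blue, ischemia in red and exact 95% Poisson intervals as error bars. Fxyd4 was at 2258 and 1802 CPM in CD-PC-like, 173 and 319.6 CPM in CNT-like and 88.5 and 301 CPM in IC-A-like cells.

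Among other genes of the pump and the FXYD family, Atp1b2, the beta-2 subunit, was called higher in TAL-like cells, with 13 and 145 UMIs, a ratio of 9.15 (5.19–17.6). It stayed low there, at 11.6 CPM in ischemia, and 17.8% of all genes tested in that type were called higher. In DCT-CNT-like cells Atp1b2, with 16 and 101 UMIs, and Fxyd6, at a ratio of 1.53 (1.15–2.04), were called higher, where 15.7% of all genes were. In CD-PC-like cells Fxyd3 was called higher, at 14.0 and 28.3 CPM, a ratio of 2.02 (1.64–2.50), where 12.6% of all genes were. In pericyte-like cells Fxyd1 (phospholemman), at 337 and 465 CPM, and Atp1b2, at 115 and 105 CPM, were not called.

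The potassium channel genes Kcnj10, Kcnj15 and Kcnj16 have products that let out again the potassium that the pump brings in. All 3 were called lower in PT-like cells, where 9.09% of all genes were, with Kcnj15 at 501 and 286 CPM, a ratio of 0.570 (0.560–0.580), and Kcnj16 at 394 and 255 CPM, a ratio of 0.647 (0.634–0.659). The summed PT markers were also lower there, at 8468 and 4480 CPM, and their part was not tested. In TAL-like cells 2 of 3 were called lower, where 15.8% of all genes were, with Kcnj10 at 71.7 and 17.2 CPM, a ratio of 0.239 (0.205–0.279), while Kcnj16 was at 364 and 422 CPM, a ratio of 1.16 (1.11–1.21). Kcnj10 and Kcnj15 were also called lower in DCT-CNT-like cells, at 0.607 and 0.330, where 12.1% were, and in CD-PC-like cells, at 0.620 and 0.334, where 11.5% were. In thin limb-like cells 2 of 2 tested were called lower, where 16.6% were, and in IC-like cells 0 of 2, where 13.6% were. Types outside the tubule had such calls too, 3 of 3 in macrophage-like cells and 2 of 2 in podocyte-like, EC-like, pericyte-like, PMN-like and T cell-like cells. B cell-like cells had 1 of 2. Shares of all genes called lower in these types ran from 5.62% in B cell-like to 24.2% in PMN-like cells. The source of these counts was not tested.

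The genes most like each member were found by Pearson's r of log2(CPM + 10) over 26 points, 13 types in each of the 2 libraries, among 12479 genes. The points of a library share its depth and free RNA, and r is given as a description. Atp1b1 was most like Cdh16 (r of 0.961), Nme7 (0.956), which overlaps it, and Ppargc1a (0.949). Atp1b3 was most like Klf13 (0.928), Slc25a24 (0.875) and Sh3gl1 (0.870). Fxyd2 was most like Cox6c (0.898), Cox4i1 (0.891) and mt-Nd3 (0.890), genes of the respiratory chain. Fxyd4 was most like Aqp2 (0.959), Hsd11b2 (0.948) and Aqp4 (0.935), all 3 of them markers that named the CD-PC-like cells. Fxyd5 was most like Ppp1r18 (0.962), Srgn (0.961) and Lgals9 (0.9502). Between Atp1b1 and Fxyd2 r was 0.847, and between Atp1b1 and Fxyd5 -0.739.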

How the data were processed

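Single cell RNA of kidney was counted in 1 control and 1 ischemia library. The authors deposited raw UMI counts per gene and cell. The submitters' processing notes name Cell Ranger 7.0.0 and the build mm10. Cells were filtered as in the report, log-normalized, integrated and clustered in Seurat 5.3.0 (R 4.3.3) with 2000 variable genes, 30 principal components and resolution 0.3, or 1 for the finer clusters. The members and related genes were left out of the variable genes. Clusters were named from marker lists. The margin of at least 1 log2 unit to the next list and the rule for leading genes were set after the clusters were seen. The members and gene lists were chosen with earlier results of these data known.

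UMIs were summed per type and library in Python 3.11.15 with pandas 2.3.3 and scipy 1.17.1. CPM have exact Poisson intervals, ratios exact conditional intervals and shares Clopper-Pearson intervals. The steps were tested on simulated data. Scrublet, in scanpy 1.11.5, called 0 doublets in both libraries and is taken not to have worked, so 1 alternative removed the 8% of each library with the top doublet scores. The other alternatives changed the cell filters, the clustering, the scaling and the way cells were chosen. A PMN-like cluster of the finer clustering was added after seeing the data. Genes named are the members, other pump and FXYD genes, 3 potassium channels and the 3 genes most like each member with at least 500 UMIs. Some genes of the lists are not reported here.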

Additional observations from a re-analysis of the deposited data

Results flagged for a closer look

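For Atp1b1, Atp1b3, Fxyd2 and Fxyd5 the ratio of ischemia to control CPM lay on both sides of 1, with counting intervals that exclude 1. How many of all genes do the same was not counted, so this is not read as particular to these genes. With 1 library a condition the difference between cell types was not tested, and the intervals cover counting error only.

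For Atp1b1, the beta-1 subunit, the ratio was 1.135 in IC-like cells, above 1, and 0.8743 in PT-like, 0.3261 in thin limb-like, 0.3806 in TAL-like, 0.6726 in DCT-CNT-like, 0.92 in CD-PC-like, 0.6931 in podocyte-like, 0.6094 in EC-like, 0.5886 in pericyte-like, 0.4981 in macrophage-like, 0.5825 in PMN-like and 0.6239 in T cell-like cells, below 1. For Atp1b3, the beta-3 subunit, the ratio was 1.297 in PT-like, 1.415 in DCT-CNT-like, 1.242 in EC-like and 1.774 in macrophage-like cells, above 1, and 0.7898 in TAL-like cells, below 1. For Fxyd2, the gamma subunit, the ratio was 1.09 in PT-like and 1.479 in B cell-like cells, above 1, and 0.1985 in thin limb-like, 0.8329 in TAL-like, 0.7543 in DCT-CNT-like, 0.5178 in CD-PC-like, 0.7317 in IC-like, 0.7382 in EC-like, 0.6117 in pericyte-like and 0.7146 in macrophage-like cells, below 1. For Fxyd5, dysadherin, the ratio was 1.845 in PT-like, 9.811 in CD-PC-like, 1.408 in EC-like, 1.414 in pericyte-like and 3.334 in PMN-like cells, above 1, and 0.8816 in macrophage-like cells, below 1. With cells chosen by marker UMIs, the Atp1b1 ratio in IC-like cells was 0.919 and the Fxyd5 ratio in PT-like cells 0.985. The Atp1b1 ratio in podocyte-like cells was 1.27 with cells chosen by marker UMIs and 1.37 with at most 25% mitochondrial UMIs. The Fxyd2 ratio in PT-like cells was 0.968 with at most 25% mitochondrial UMIs. The median ratio of all genes was 1.08 in PT-like and 1.22 in B cell-like cells. The Atp1b3 ratio in EC-like cells was 1.01 after thinning. For types outside the tubule the source of Fxyd2 and Atp1b1 was not tested.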

How the results depend on the processing

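No interval covers differences between animals, kidneys or libraries. The 7 main ratios were recomputed under 11 alternatives and moved by less than their counting interval in 38 of the 75 values obtained. The ratio of Fxyd4 in CD-PC-like cells has no value under the 25% mitochondrial limit or without integration, where no cluster was named CD-PC-like. The Atp1b1 ratio in TAL-like cells stayed past a fold of 1.5 in all 11 alternatives. The values that moved follow, and the cause was not tested. With a limit of 25% mitochondrial UMIs, the ratio was 0.853 for Atp1b1 in PT-like, 0.451 for Atp1b1 in TAL-like, 0.968 for Fxyd2 in PT-like and 0.863 for Fxyd2 in TAL-like cells. With a minimum of 1000 UMIs, the ratio was 1.10 for Fxyd2 in PT-like and 0.6003 for Fxyd4 in CD-PC-like cells. With no integration of the libraries, the ratio was 0.887 for Atp1b1 in PT-like, 0.402 for Atp1b1 in TAL-like, 1.05 for Fxyd2 in PT-like, 0.814 for Fxyd2 in TAL-like and 1.08 for Fxyd5 in PT-like cells. With clustering at resolution 0.6, the ratio was 0.845 for Fxyd2 in TAL-like cells. With cells chosen by marker UMIs, the ratio was 0.412 for Atp1b1 in TAL-like, 1.10 for Fxyd2 in PT-like, 0.856 for Fxyd2 in TAL-like, 0.649 for Fxyd4 in CD-PC-like and 0.985 for Fxyd5 in PT-like cells. With the mean of each cell's CPM, the ratio was 0.860 for Atp1b1 in PT-like, 0.354 for Atp1b1 in TAL-like, 1.21 for Atp1b3 in PT-like, 1.03 for Fxyd2 in PT-like and 0.771 for Fxyd2 in TAL-like cells. With cells thinned to 1000 UMIs, the ratio was 0.894 for Atp1b1 in PT-like, 0.350 for Atp1b1 in TAL-like, 1.16 for Atp1b3 in PT-like, 1.03 for Fxyd2 in PT-like and 0.758 for Fxyd2 in TAL-like cells. With scaling to UMIs of genes other than mitochondrial ones, the ratio was 0.829 for Atp1b1 in PT-like, 0.349 for Atp1b1 in TAL-like, 1.03 for Fxyd2 in PT-like, 0.764 for Fxyd2 in TAL-like and 0.785 for Fxyd4 in CD-PC-like cells. With the ratio divided by the median ratio of all genes, the ratio was 0.808 for Atp1b1 in PT-like, 0.355 for Atp1b1 in TAL-like, 1.20 for Atp1b3 in PT-like, 1.01 for Fxyd2 in PT-like and 0.777 for Fxyd2 in TAL-like cells. Among the other ratios, that of Fxyd4 in DCT-CNT-like cells turned from 0.474 to 1.72 with a minimum of 1000 UMIs, 1.22 without integration, 1.14 at resolution 0.6 and 1.12 with cells chosen by marker UMIs. In IC-like cells, from 29 and 3 UMIs, it was 2.23 without integration, 2.14 at resolution 0.6, 2.29 with cells chosen by marker UMIs and 1.29 after thinning, against 0.127. No paired analysis was possible because each condition has 1 library and the result comes from no test.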
